A study of Mus musculus with 3 samples.

Results

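Long intergenic noncoding RNAs (lincRNAs) expressed in the cytosolic fraction of lipid A-stimulated mouse macrophages were described here. The members were chosen by annotation and by level. A gene was taken when at least 1 of its transcripts was typed lincRNA, none was typed protein-coding, and its mean level over the libraries was at least 1 TPM (transcript abundance scaled for length and library size) in the first quantification, of 2 that were deposited. Gas5 and the Snhg genes, which carry small nucleolar RNAs in their introns, were left out. Other genes that contain small RNAs stayed in, such as 1110038B12Rik with Snord52 and Epb41l4aos with Gm23639. 74 genes met the rule, of 6043 lincRNA genes and of 55536 annotated genes in all. The cells were bone marrow-derived macrophages from C57BL/6J mice, treated with lipid A at 100 ng/ml for 90 min, and ribosomal RNA was depleted before the cytosolic RNA was sequenced. Lipid A, the membrane anchor of lipopolysaccharide in Gram-negative bacteria, activates Toll-like receptor 4. There was 1 group of 3 biological replicates and no untreated or nuclear library, so neither a response to lipid A nor a nuclear to cytosolic ratio can be given. The labels record neither age nor sex, give 1 donor entry for all replicates, and do not say whether the replicates came from separate animals or cultures, so p-values measure only the spread between these libraries, which may be technical.

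LincRNAs are transcribed from their own promoters between protein-coding genes, and many are capped, spliced and polyadenylated. Some stay in the nucleus, where Malat1 lies in nuclear speckles, Neat1 builds paraspeckles and Xist coats the inactive X chromosome. Others are precursors that are cut to release microRNAs, and a few, such as Norad, act in the cytoplasm. Activated macrophages are known to induce several lincRNAs near immune genes.

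The libraries held 3.37e+07, 4.78e+07 and 5.93e+07 expected counts on annotated genes in replicates 1, 2 and 3. The macrophage markers summed to between 5275 and 7303 TPM, with all 8 detected in the libraries. None was called variable between them in the test described below, beside 2.31% of all genes tested and 0.98% of those with a protein-coding transcript. Summed T and NK cell, B cell, erythroid and fibroblast markers stayed at or under 0.14 TPM in every library. Neutrophil markers summed to 2.82, 3.08 and 5.12 TPM, and dendritic cell markers to 1.13, 0.94 and 1.43 TPM, and mast cell and basophil markers to 0.76, 0.45 and 0.44 TPM. The part of these cells in the results below was not tested.

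4 of the members encode microRNAs in their exons or introns, and for 3 of these hosts RefSeq (GRCm38.p6) gave the mature sequences. They are shown with the seed, bases 2 to 8, in capitals, because the seed decides which messages a microRNA can pair with. Mir155hg on chromosome 16 carries miR-155, a regulator of inflammation. Mir142hg on chromosome 11 carries miR-142, an abundant microRNA of blood cells. Dleu2 on chromosome 14 carries miR-15a and miR-16-1, which restrain the cell cycle.
mmu-miR-155-5p: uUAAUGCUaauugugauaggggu
mmu-miR-155-3p: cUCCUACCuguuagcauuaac
mmu-miR-142a-5p: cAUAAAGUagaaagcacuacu
mmu-miR-142a-3p: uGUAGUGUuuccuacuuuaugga
mmu-miR-15a-5p: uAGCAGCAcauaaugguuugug
mmu-miR-16-5p: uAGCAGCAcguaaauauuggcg
The last 2 share the seed AGCAGCA, while the 2 arms of miR-155 and the 2 arms of miR-142a each have a seed of their own. The fourth host, AI506816, contains Mir3096. These libraries measure the host transcripts, not the mature microRNAs.

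The 74 members were few against the annotation. They made up 1.22% of the lincRNA genes, while 39.9% of the genes with a protein-coding transcript reached 1 TPM by the same rule. In all 3 libraries 4889 lincRNA genes, 80.9% of them, had no count. The median of the members' mean levels was 3.92 TPM, beside 6.58 TPM for the 8745 protein-coding genes of at least 1 TPM. Of the members, 4 averaged at least 100 TPM, 15 lay between 10 and 100, 33 between 2 and 10, and 22 between 1 and 2. These levels chose the members and are given as a description.

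**Figure D1:**
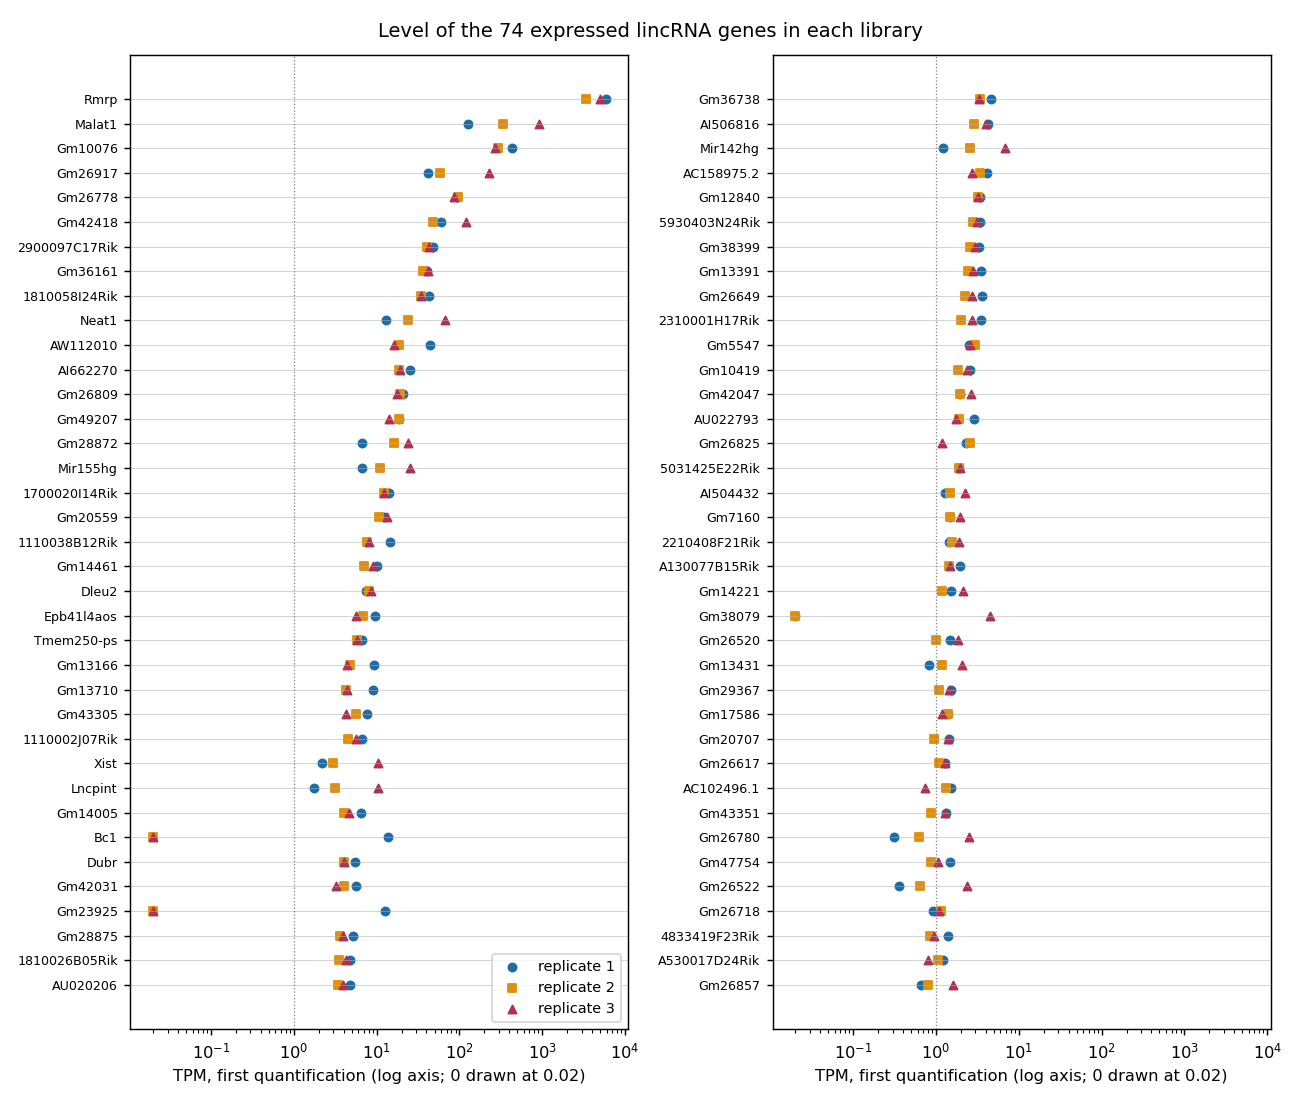
TPM of each of the 74 members in the first quantification (x axis, log scale, values of 0 drawn at 0.02), one row per gene in order of mean level, with a symbol for each replicate and a dotted line at 1 TPM. Rmrp lies at 3410 TPM or more in every library, most members lie between 1 and 10, and Malat1, Gm26917, Neat1, Xist and Lncpint are spread widely with replicate 3 at the right.

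Rmrp, the RNA subunit of RNase MRP, which processes ribosomal RNA precursors, had the highest level, at 5850, 3410 and 4967 TPM in replicates 1, 2 and 3. It alone made up 82.3%, 73.4% and 70.0% of the members' summed TPM. This value cannot be separated from a second annotated Rmrp gene. The lincRNA entry (chr4:43492783-43493063, minus strand) contains the whole 271-nt ribozyme entry, which was listed at 9468, 12534 and 20663 TPM. The end of the lincRNA entry from base 165 on, in the GENCODE M21 annotation, shows how little tells the entries apart, with the bases that the ribozyme entry lacks in capitals.
Rmrp: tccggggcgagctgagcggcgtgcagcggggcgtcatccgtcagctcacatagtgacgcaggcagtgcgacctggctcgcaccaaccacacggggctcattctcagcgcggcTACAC
The lincRNA entry was lowest in replicate 2 and the ribozyme entry in replicate 1, so the TPM was divided between the entries differently in each library.

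Malat1, on the minus strand at chr19:5795690-5802672, was next by mean level. It was listed at 128, 335 and 913 TPM in replicates 1, 2 and 3, a mean of 459 ± 407 TPM (SD, n = 3). Neat1, on the same strand nearby (chr19:5824708-5845478), was listed at 12.9, 24.1 and 66.9 TPM. Xist, on the X chromosome, was listed at 2.16, 2.97 and 10.3 TPM. In each of these nuclear RNAs replicate 1 was lowest and replicate 3 highest, and the levels of replicates 1 and 3 differed several fold. Neat1 has a short and a long form, and paraspeckles need the long one. The 3004-nt transcript held 90.6%, 91.1% and 92.7% of the Neat1 TPM, and the 20771-nt transcript 6.78%, 5.29% and 3.80%.

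Gm26917 and Gm42418 lie next to each other on chromosome 17. Both were listed as lincRNAs at ribosomal RNA sequence, but the annotation used here shows an overlap with an rRNA entry for Gm42418 and none for Gm26917. RefSeq lists Gm42418 under the name Rn18s-rs5, an 18S-related sequence. Gm26917 was listed at 41.5, 58.5 and 225 TPM and Gm42418 at 59.4, 48.3 and 122 TPM. Both were highest in replicate 3. Exons on the opposite strand cover 99.5% of the exonic bases of Gm42418. Its best match was the rRNA entry CT010467.1, antisense over 1244 bases at 100% identity. That entry was listed at 2118, 22.6 and 66.0 TPM and was highest in replicate 1. The sources used here do not name the strand setting of the counting, so reads of Gm42418 and CT010467.1 may have been shared between them. The part of ribosomal RNA depletion in these values was not tested.

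3 further members among the most abundant or the steadiest are known by other names or functions. 2900097C17Rik was at 47.6, 40.6 and 42.7 TPM. RefSeq lists this name among the synonyms of Norad, a decoy for Pumilio proteins, and also among those of Bscl2. 1700020I14Rik, in RefSeq Oip5os1 and known as Cyrano for its deeply conserved miR-7 site, was at 14.1, 12.1 and 12.2 TPM. 1810058I24Rik was at 43.2, 34.3 and 34.3 TPM, and its transcript is known to encode a small mitochondrial peptide. In these 3 genes replicate 1 had the highest TPM and the other two libraries lay close together.

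Among lncRNAs described in activated macrophages, 3 of 12 found in the annotation were members. AW112010, an interferon-inducible RNA known to be translated in macrophages, was at 43.6, 18.9 and 16.3 TPM, with replicate 1 standing above the others. Mir155hg was at 6.68, 11.0 and 25.2 TPM, with replicate 3 above the others. Gm14005, in RefSeq Morrbid, represses its neighbour Bcl2l11 in short-lived myeloid cells and was at 6.39, 4.0 and 4.58 TPM. Its nearest protein-coding gene was Bcl2l11, which encodes the cell death protein Bim, 15772 bases away and at 99.8, 83.9 and 74.4 TPM. It was the only nearest neighbour of a member on the list of lipid A response genes. Of the others on the list, Ptgs2os2, near the cyclooxygenase gene Ptgs2, was at 0.62, 0.70 and 0.65 TPM, Pvt1 stayed at or under 0.28 TPM, Mirt1 at or under 0.22 TPM and Ptgs2os at or under 0.02 TPM.

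The microRNA hosts differed in level. Mir142hg was at 1.21, 2.55 and 6.77 TPM, from 4, 17 and 55 counts. Dleu2 was at 7.49, 8.02 and 8.56 TPM. Both, like Mir155hg, had their highest TPM in replicate 3. AI506816, which contains Mir3096, was at 4.21, 2.85 and 3.97 TPM and was not called variable between the libraries. It was highest in replicate 1 by TPM, but in replicate 3 by counts relative to library size (log2 CPM 4.19, 3.89 and 4.26). Mir17hg, the precursor of the miR-17 to miR-92 cluster, was no member at 0.10, 0.19 and 0.63 TPM. Mir22hg, typed as a processed transcript, was at 12.9, 11.1 and 18.8 TPM.

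At the threshold, the lowest members were 4833419F23Rik with a mean of 1.06 TPM, A530017D24Rik with 1.02 TPM and Gm26857 with 1.02 TPM. The highest genes left out were Gm5086 with 0.99 TPM, Gm38843 with 0.98 TPM and 2010110E17Rik with 0.96 TPM. 60 of the 74 members had at least 1 TPM in every library. The other 14 passed the rule through their higher libraries. In the extreme cases, Bc1 was at 13.7 TPM in replicate 1 from 6 counts and had no count in replicates 2 and 3, Gm23925 was at 12.8 TPM from 0.99 expected counts in replicate 1 only, and Gm38079 was at 4.52 TPM from 3 counts in replicate 3 only. These 3 genes are between 132 and 168 bases long, so that a few counts give a high TPM. Their presence rests on counts at or near the limit that a count of 0 allows, which is 3 counts per library and covers counting error only.

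The spread between libraries was measured on log2 CPM (counts relative to library size, scaled by edgeR's trimmed mean of M-values, prior count 2), a scale for comparing libraries and not genes. Each gene with at least 10 counts in every library was tested for variation beyond that usual for its abundance, with edgeR's goodness-of-fit test against the trended dispersion and Benjamini-Hochberg adjustment over 12339 genes. 68 members entered the test and 6 did not (Gm28872, Bc1, Gm23925, Mir142hg, Gm38079 and Gm43351). 14 of the 68 were called variable at an adjusted p under 0.05, beside 2.31% of all genes tested. Of the genes with a protein-coding transcript, 110 of 11186 were called. Of the lincRNA genes below 1 TPM, 12 of 158 were called, of the left-out host genes 0 of 7 (1 at an unadjusted p under 0.05), and of the remaining noncoding and pseudogene classes 149 of 920. The members' median SD was 0.24 on the log2 CPM scale, against 0.12 for all genes tested.

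3 of the 14 calls were genes under 1 TPM in at least 1 library, which had to differ between libraries to become members. Among the 58 tested members with at least 1 TPM in every library, 11 were called. Without replicate 3, 5 members were called (AW112010, Lncpint, Malat1, Mir155hg and Neat1), beside 0.79% of all genes.

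**Figure D2:**
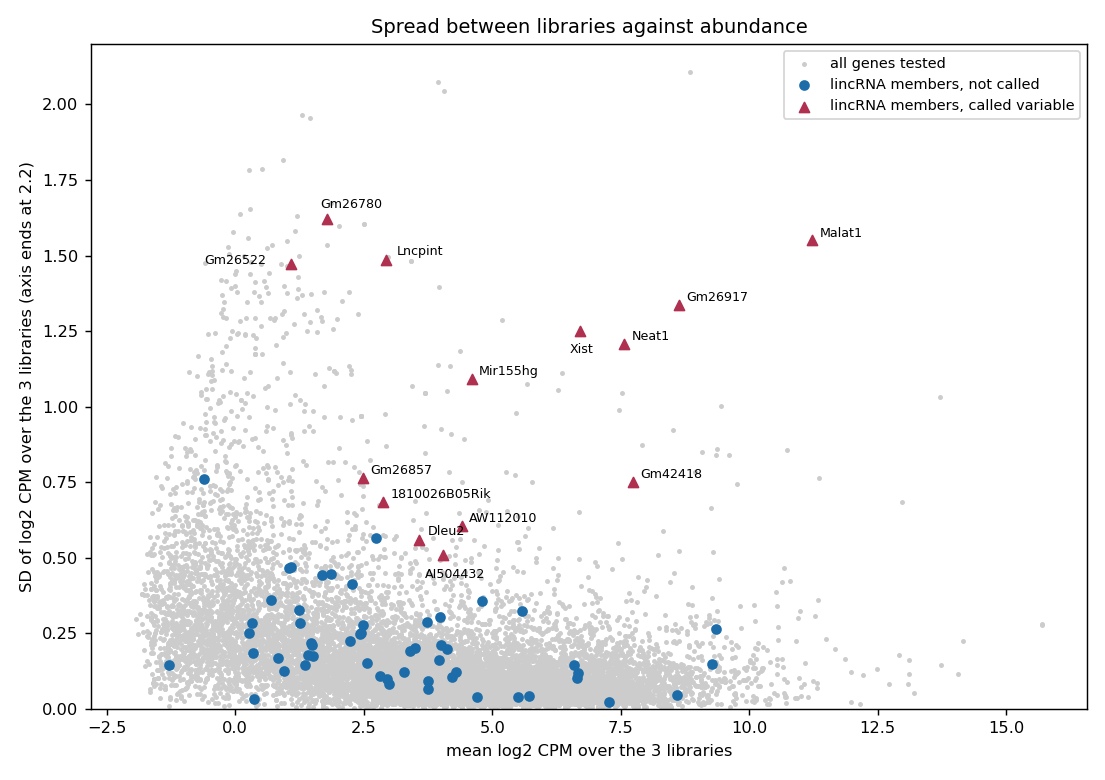
SD of log2 CPM over the 3 libraries (y axis, ending at 2.2, genes above it not drawn) against mean log2 CPM (x axis) for every gene tested in grey, the members not called variable as blue circles and the 14 called members as named red triangles. Malat1, Gm26917, Neat1 and Xist have SDs between 1.21 and 1.55, while most other members lie within the grey cloud.

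13 of the 14 called members were highest in replicate 3 and 1, AW112010, in replicate 1. Of the 13, Gm26780, Gm26522 and Gm26857 met the membership rule only through replicate 3. Of all genes tested, 1.73% were called and highest in replicate 3. Over all 68 members, called or not, 31 were highest in replicate 3, beside 35.6% of all genes tested. 16 members spanned at least 2-fold between their highest and lowest library, beside 5.73% of all genes tested.

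Among the nuclear RNAs, Malat1 had log2 CPM values of 9.67, 11.24 and 12.77, a difference of 8.58-fold between replicates 3 and 1 (edgeR goodness-of-fit, adjusted p = 7.3e-16). Neat1 spanned 5.31-fold (edgeR, adjusted p = 4.1e-22) and Xist 5.26-fold (edgeR, adjusted p = 3.6e-29), with replicate 2 between the other two in each. Lncpint, a p53-induced nuclear RNA, spanned 7.77-fold (edgeR, adjusted p = 1.3e-20) and was listed at 1.74, 3.17 and 10.5 TPM. Of the 9 nuclear architectural RNAs listed, 8 were found under the listed name, of which 7 were tested and 5 called. All 5 were highest in replicate 3, and the 7 had a median difference of 2.39 on the log2 CPM scale between replicates 3 and 1. These counts leave out Norad, which was listed but is annotated here as 2900097C17Rik. That gene was tested and not called, with a difference of 0.09. Of all genes tested, 2.31% were called, 1.73% were called and highest in replicate 3, and the median difference was -0.0024. The 2 called genes of this list that were no members were Firre, at 0.71, 1.03 and 2.02 TPM, and Kcnq1ot1, at or under 0.05 TPM. Tug1, typed antisense, was steady at 19.2, 15.2 and 15.8 TPM.

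The messages of proteins of the same nuclear bodies were described beside these RNAs. None of the 6 paraspeckle protein genes and none of the 6 nuclear speckle protein genes was called by edgeR's test at an adjusted p under 0.05. Of all genes tested 2.31% were called, and of those with a protein-coding transcript 0.98%, so few calls would be usual in sets of this size. Their median differences between replicates 3 and 1 were 0.03 and 0.12 on the log2 CPM scale. Highest in replicate 3 were 2 of the 6 paraspeckle and 5 of the 6 nuclear speckle protein genes, beside 35.6% of all genes tested. Of the nuclear small RNAs tested, Rn7sk, the ribozyme entry of Rmrp, Rpph1 and Terc were lowest in replicate 1, and the lincRNA entry of Rmrp was lowest in replicate 2. Rnu12, which missed the count filter, was at 26.6, 17.9 and 25.8 TPM. Rn7sk, the RNA that holds the elongation factor P-TEFb inactive, was at 33002, 77014 and 83514 TPM (edgeR, adjusted p = 8.5e-05). The ribozyme entry of Rmrp differed between replicates 3 and 1 by 1.70 on the log2 CPM scale, and Rpph1, the RNA of RNase P, by 1.13 with replicate 2 highest. Counts on transcripts with a retained intron made up 1.17%, 1.30% and 1.70% of annotated counts in replicates 1, 2 and 3, and those on small nuclear RNA genes 87.8, 156 and 347 CPM. The part of these nuclear signals in the members' differences was not tested.

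**Figure D3:**
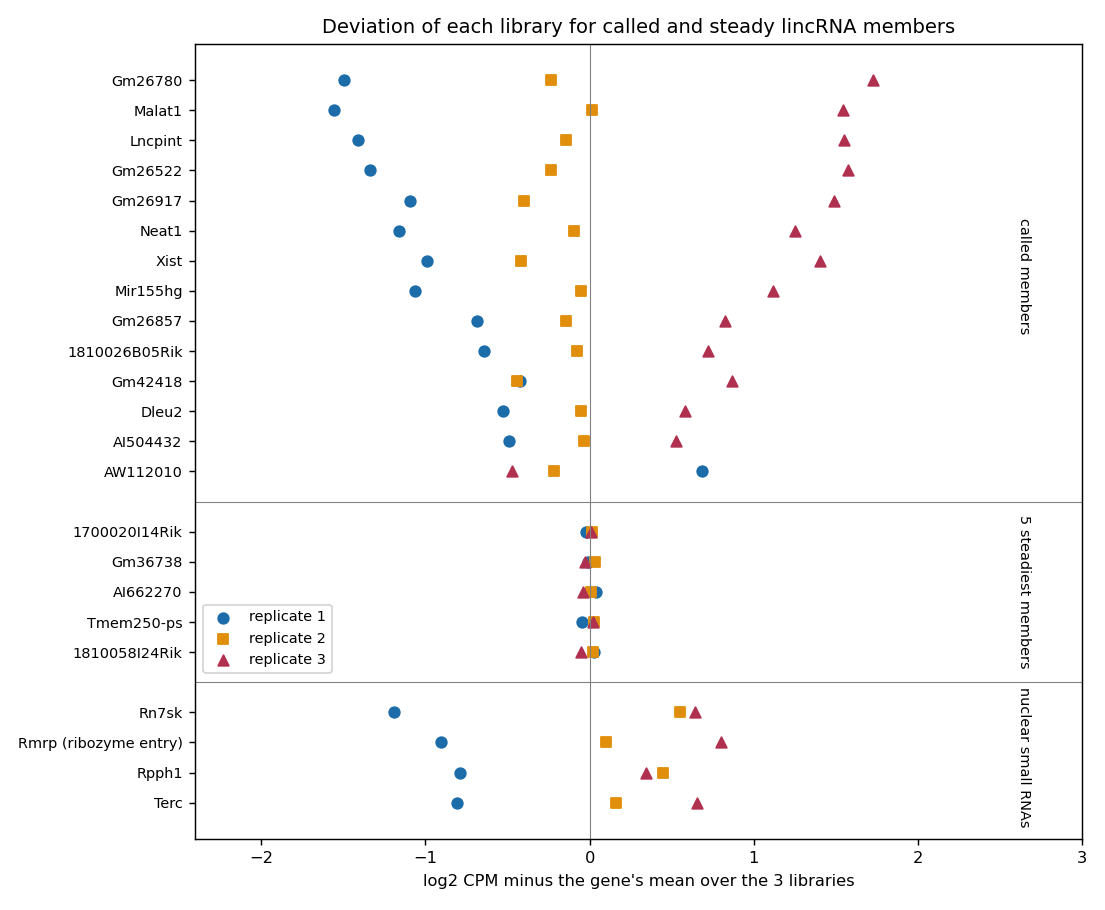
log2 CPM of each library minus the gene's mean over the 3 libraries (x axis) for the 14 called members, the 5 members with the smallest SD and 4 nuclear small RNAs, with a symbol for each replicate. In 13 called members replicate 3 lies at the right, AW112010 has replicate 1 at the right, the symbols of the 5 steady members nearly coincide, and replicate 1 is lowest in all 4 small RNAs.

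Mir155hg (chr16:84703167-84715245), the host of the miR-155 sequences shown above, was called with log2 CPM values of 3.54, 4.55 and 5.72, a 4.54-fold span (edgeR, adjusted p = 3.7e-17). It rested on 409, 1093 and 3049 counts. Its nearest protein-coding gene, Mrpl39, which encodes a mitochondrial ribosomal protein, was at 5.99, 5.99 and 5.80 TPM and was not called. Mir142hg was also lowest in replicate 1 and highest in replicate 3, but its 4 counts in replicate 1 kept it out of the test. Of the 13 microRNA host RNAs on the list that were annotated, 5 were tested and 3 called, namely Mir155hg, Dleu2 and Mir17hg. Of all genes tested, 2.31% were called. All 5 hosts were highest in replicate 3, beside 35.6% of all genes tested.

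AW112010 (chr19:11047612-11055808) was the called member that was highest in replicate 1. Its log2 CPM values were 5.09, 4.19 and 3.94, so replicate 3 stood at 0.449 times replicate 1 (edgeR, adjusted p = 0.00016). The call depended on replicate 1, since without that library the adjusted p was 1.00. Cxcl10, an interferon-induced chemokine on the lipid A response list, was likewise highest in replicate 1 and lowest in replicate 3, at 482, 198 and 109 TPM (edgeR, adjusted p = 1.5e-09), and Ifnb1, which encodes interferon beta, was also highest in replicate 1 at 46.5, 17.6 and 28.3 TPM. Of the 42 lipid A response genes found and tested, 7 were called, beside 2.31% of all genes tested. 4 of the 7 were highest in replicate 1 and 2 in replicate 3.

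3 called members, Gm26780, Gm26522 and Gm26857, lie on the opposite strand of macrophage genes, within Abr, Ctsc and Lyn. Ctsc encodes cathepsin C and Lyn is a Src-family kinase. Gm26780 was at 0.31, 0.63 and 2.52 TPM, a 9.30-fold span in CPM (edgeR, adjusted p = 1.6e-11). Gm26522 was at 0.36, 0.65 and 2.34 TPM, a 7.55-fold span (edgeR, adjusted p = 1.5e-05). Gm26857 was at 0.66, 0.80 and 1.59 TPM, a 2.85-fold span (edgeR, adjusted p = 0.0091). All 3 were under 1 TPM in replicates 1 and 2 and met the membership rule only through replicate 3. They therefore had to differ between libraries to become members. The surrounding coding genes had their highest TPM in replicate 1. On the log2 CPM scale, on which the lincRNAs were compared, Ctsc and Lyn were also highest in replicate 1, but Abr was highest in replicate 3. Abr was at 48.6, 37.4 and 42.1 TPM, Ctsc at 226, 183 and 165 TPM and Lyn at 53.8, 38.6 and 40.2 TPM, and none was called. Exons of the coding genes overlapped 1.1% of the exonic bases of Gm26780, 0.0% of Gm26522 and 7.4% of Gm26857. The introns of the coding genes lie over the rest, and without a stated strand setting intron reads of these genes cannot be told apart from reads of the lincRNAs.

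AI504432, 1434 bases from the potassium channel gene Kcna3, was at 1.30, 1.49 and 2.22 TPM (edgeR, adjusted p = 0.015). It was called in 5 of 10 fits, counting the main fit and 1 that changed only the prior count. The prior count does not enter the test, so those 2 fits had to give the same calls. Kcna3 was called too, at 1.48, 2.25 and 3.12 TPM (edgeR, adjusted p = 0.026). Of the 9 called members whose nearest protein-coding gene was tested, this was the single one with a called neighbour. Over all members, 60 nearest genes were tested and 2 called, beside 2.31% of all genes tested and 0.98% of those with a protein-coding transcript. The other called neighbour was Map3k8, 543 bases from 4833419F23Rik. Map3k8, a kinase of the lipopolysaccharide response, was at 12.8, 7.13 and 6.22 TPM (edgeR, adjusted p = 0.012), and 4833419F23Rik was at 1.38, 0.85 and 0.96 TPM and was not called.

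In 1810026B05Rik and Dleu2 the call came from counts and not from TPM. 1810026B05Rik, in RefSeq Chaserr, a conserved RNA that restrains its neighbour Chd2, had 164, 323 and 695 counts, and its log2 CPM spanned 2.57-fold (edgeR, adjusted p = 0.0071), but its TPM was 4.78, 3.54 and 4.24. Its 2 transcripts of at least 2000 bases summed to 0.26, 0.55 and 1.22 TPM, and its 6 shorter ones to 4.52, 2.99 and 3.03 TPM. 1 of the 2 long ones, of 2824 nt, is typed retained intron. The gene overlaps Chd2 on the same strand, and same-strand exons of other genes cover 30.5% of its exonic bases. Its reads may therefore be shared with other genes, which was not tested. Long transcripts give many counts per TPM. The 590-nt spliced form alone was at 2.90, 1.74 and 1.32 TPM. Dleu2 showed the same division, with 0.40, 0.72 and 1.52 TPM on its 3 long transcripts and 7.10, 7.31 and 7.05 TPM on its 12 shorter ones, and 2.16-fold in CPM (edgeR, adjusted p = 0.0076). In the second quantification the long transcripts were also lowest in replicate 1 and highest in replicate 3, at 0.12, 0.24 and 0.45 TPM for 1810026B05Rik and 0.20, 0.29 and 0.52 TPM for Dleu2. The length of 2000 bases was chosen after these values were seen.

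**Figure D4:**
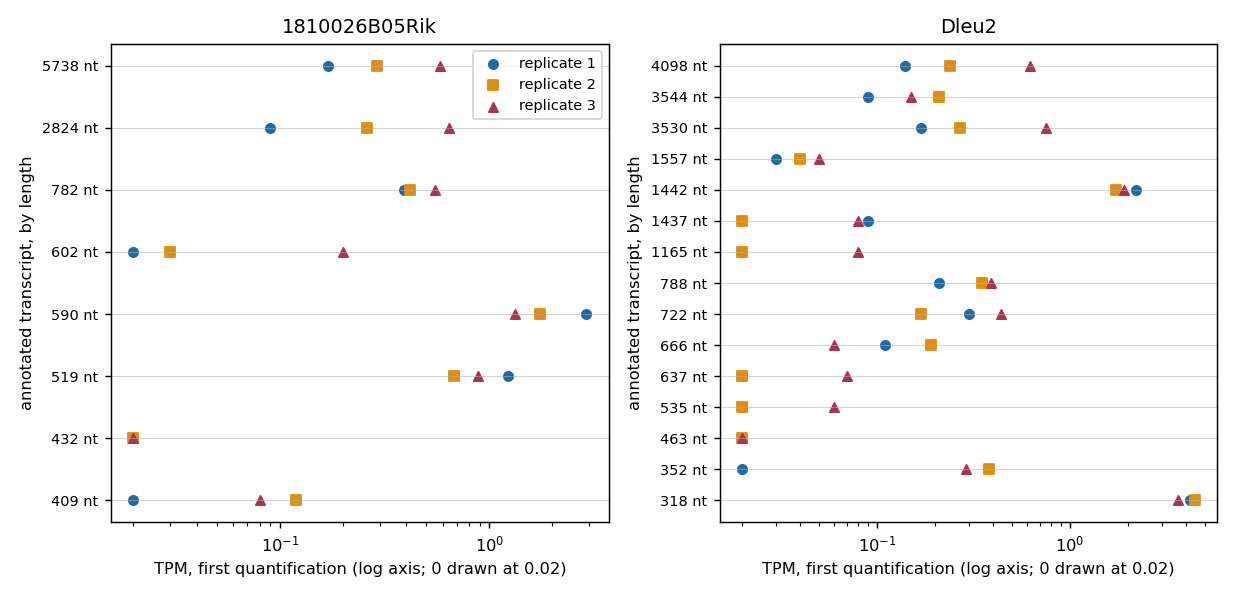
TPM (x axis, log scale, values of 0 drawn at 0.02) of every annotated transcript of 1810026B05Rik (left) and Dleu2 (right), ordered by length, with a symbol for each replicate. The 2 longest transcripts of 1810026B05Rik are highest in replicate 3, at 0.58 and 0.64 TPM, while its most abundant 590-nt transcript is highest in replicate 1.

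The steadiest members were 1700020I14Rik with an SD of 0.02 on the log2 CPM scale, Gm36738 with 0.03, AI662270 with 0.04, Tmem250-ps with 0.04 and 1810058I24Rik with 0.04. Their largest span between libraries was 1.06-fold. Gm36738 lies 1628 bases from Rac2, a GTPase of the phagocyte oxidase, and AI662270 lies among the Schlafen genes, with Slfn3 as its nearest protein-coding gene. Gm14005 had an SD of 0.12 and its neighbour Bcl2l11 of 0.13.

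The members had few exons. The most expressed transcript of each had a median of 2 exons and a median length of 1400.5 bases, beside 2 exons and 1319 bases for the 1013 lincRNA genes with a mean above 0 and below 1 TPM, and 9 exons and 2690 bases for protein-coding genes of at least 1 TPM. Of the 74, 19 (25.7%) had a single exon. The same share was 13.8% for those 1013 lincRNA genes and 2.3% for the 8745 protein-coding genes. These shares were not tested against each other. 38 of the members lay within 5 kb of a protein-coding gene, 14 of these overlapping one, and 9 lay more than 100 kb away. Neighbours within 1 kb, named here after their values were seen, included Marcks, which encodes an actin-binding kinase substrate and was at 161 TPM, beside 5930403N24Rik at 3.11 TPM, and Efhd2, a calcium-binding protein gene at 147 TPM, beside Gm29367 at 1.36 TPM.

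Many members shared sequence with other genes. A search of the most expressed transcript of each member against the GENCODE M21 transcripts of all other genes found at least 80% of its bases, at 95% identity or more and on either strand, in 18 members, and under 20% in 44. Reads of the 18 may fit more than 1 gene, and their levels are uncertain. Where the match is antisense, as in Gm26778, this depends on the strand setting, which is not stated. 6 of the members had at least 80% of their exonic bases under an exon on the opposite strand, among them Gm26778, which lies opposite Kctd12 over its whole length and was at 93.1, 95.01 and 87.0 TPM. Kctd12, a potassium channel tetramerisation domain protein gene, had a mean of 267 TPM. Gm36161 on chromosome 13, at 40.9, 36.7 and 41.5 TPM, matched the protein-coding gene Gm21188 at 95.7% identity over an alignment of 1541 positions.

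Gm10076 shows the extent of such sharing. Its 383-nt transcript on chromosome 14 matched Rpl41, the gene of a very small ribosomal protein, over 383 bases at 99.5% identity. It contains the whole coding part of Rpl41 without its stop codon, 75 bases with 0 differences, shown here in capitals with 12 bases on each side.
Gm10076: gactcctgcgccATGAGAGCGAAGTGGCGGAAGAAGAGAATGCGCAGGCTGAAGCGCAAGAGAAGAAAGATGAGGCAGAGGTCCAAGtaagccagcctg
It was listed at 428, 294 and 269 TPM in the first quantification and at 0.37, 0.30 and 0.20 TPM in the second, while the mean of Rpl41 was 789 TPM in the first. Gm49207 on chromosome 15 matched Ahsa1, a co-chaperone of Hsp90, over 268 bases at 99.6% identity. Its first 48 bases align to the coding part of Ahsa1 with 1 differing base, in capitals.
Gm49207: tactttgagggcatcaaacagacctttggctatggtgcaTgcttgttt
It was listed at 18.8, 18.4 and 14.1 TPM in the first quantification and at 0, 0.14 and 0 TPM in the second. Gm28872 (chr4:132270056-132270213, plus strand) lies opposite Rnu11, the RNA of the minor spliceosome's U11 particle. 134 of its 158 bases, in capitals, are the reverse complement of Rnu11.
Gm28872: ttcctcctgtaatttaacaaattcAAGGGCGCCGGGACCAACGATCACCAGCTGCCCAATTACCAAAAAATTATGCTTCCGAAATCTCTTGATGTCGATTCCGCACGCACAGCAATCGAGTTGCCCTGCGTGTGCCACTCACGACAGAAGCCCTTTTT
It was listed at 6.60, 16.4 and 24.2 TPM from 2, 10 and 19 counts, and Rnu11 itself was listed at 0 in all libraries.

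The 2 quantifications differed for these genes. The second gave lower TPM values in general, with a median log2 ratio of -1.23 to the first over 9272 genes of at least 1 TPM, and differences are given relative to that median, on log2(TPM + 0.1). 14 of the 74 members differed by at least 2-fold, beside 3.14% of all genes. Of the 18 members mostly shared with other genes, 10 differed, and of the 44 hardly shared, 2 did (1110002J07Rik and Gm38079). The members furthest below the median were Gm10076 by -8.50, Gm49207 by -5.65, Gm26649, which lies opposite Klf7, by -3.67, and Gm23925, which lies within Snhg17, by -3.62. The furthest above were Gm26809 by 5.10, Gm12840 by 4.78, Gm43305 by 3.41 and Gm38079 by 1.91. Gm26809 was listed at 20.8, 19.4 and 17.4 TPM in the first quantification and at 326, 287 and 237 TPM in the second. The called members were not among these, and Malat1, Neat1 and Mir155hg lay within 0.28 of the median.

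**Figure D5:**
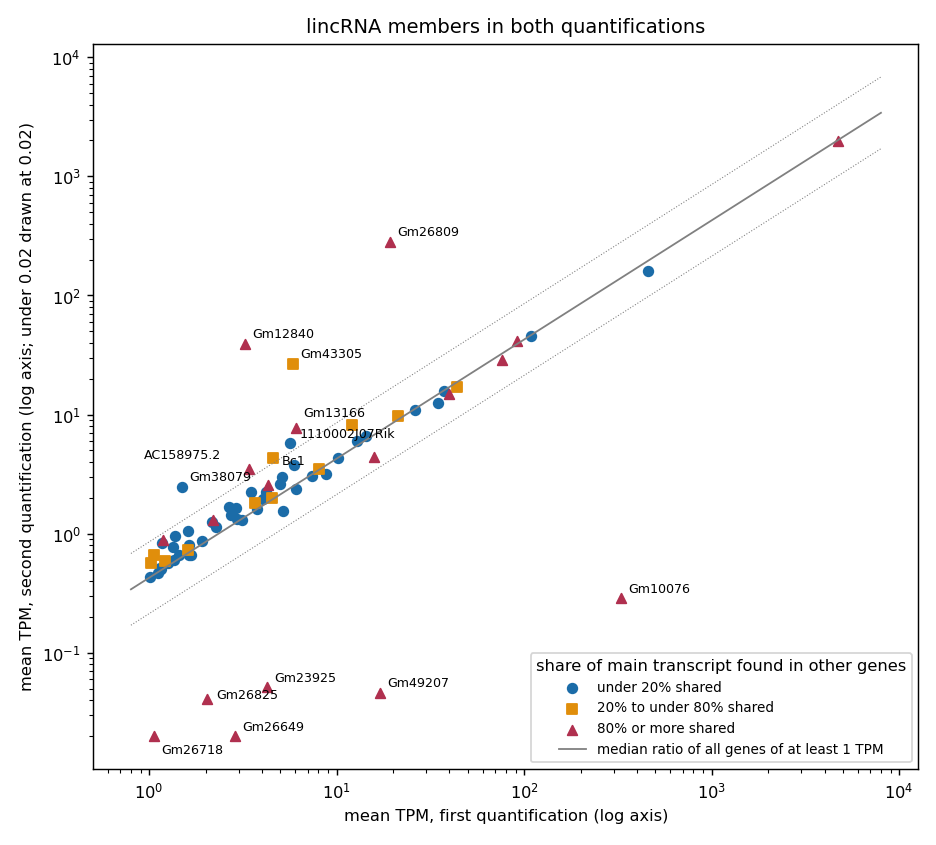
Mean TPM of each member in the second quantification (y axis, log scale, under 0.02 drawn at 0.02) against the first (x axis, log scale), coloured by the share of its most expressed transcript found in other genes. The solid line is the median ratio of all genes of at least 1 TPM, the dotted lines are 2-fold above and below, and the 14 members outside them are named. 10 of these 14 are shared over 80% or more of their length.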

How the data were processed

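The 3 libraries of 1 group were analysed from 2 quantifications per library on mm10 with GENCODE M21, the names of the tools not being given in the sources used here. Per the file headers, the authors deposited expected counts, TPM, FPKM and isoform percent for genes and transcripts in the first quantification, and estimated counts and TPM per transcript in the second, which were summed here per gene. Expected counts were rounded for the tests, and the deposited FPKM values served only as an alternative for the membership rule. The deposited isoform percentages were copied as given.

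Variation between libraries was tested with edgeR 4.0.16 (intercept-only negative binomial fit, trended dispersion, goodness of fit, Benjamini-Hochberg adjustment over all genes tested) on genes whose lowest library had 10 counts or more. The procedure was tested on simulated counts with genes changed in 1 library. At 2-fold it recovered 104 of 195 changed genes with 6 false calls, and at 4-fold 182 of 200 with 1 false call. A gene that was not called may therefore still differ 2-fold. DESeq2 1.42.0 gave alternative size factors. Most expressed member transcripts were searched with blastn 2.17.0 against the transcripts of other genes at 95% identity or more. Mature microRNA sequences came from RefSeq.

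The members and lists were chosen with earlier results of these data known. The genes named were the 15 highest members, the members on fixed lists, the 8 largest and 5 smallest SDs, the called members, 3 on each side of 1 TPM, 4 in each direction that differed most between the quantifications, and the members next to lipid A response genes. The members below the count filter, AI506816, 1110038B12Rik, Epb41l4aos and a few neighbours or exceptions were named after their values were seen. With 1 group there was no comparison of conditions. Alternatives covered scaling, count filters, dispersion, the second quantification, pseudocounts, the membership rule and leaving out each replicate. Counts from libraries without molecular identifiers are not independent molecules, so limits cover counting error only.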

Additional observations from a re-analysis of the deposited data

How the results depend on the processing

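The number of members called variable, 14, stayed between 10 and 17 under every other planned setting except leaving out replicate 3. Of all genes tested in the fits on 3 libraries, between 1.31% (at least 1 count in any library) and 3.05% (common dispersion) were called. Without replicate 1, 10 of 71 members were called, beside 1.25% of all genes tested. Without replicate 2 these values were 10 of 68 and 1.46%, and without replicate 3 they were 5 of 68 and 0.79%. The count was also restricted to the 41 members under 80% shared with other genes and with no exon on the opposite strand, a choice made after seeing the data. Of these, 37 were tested and 7 called (Gm26917, Neat1, AW112010, Mir155hg, 1810026B05Rik, AI504432 and Gm26522). That is 18.9% of those tested, beside 20.6% of all members tested. Any overlap on the opposite strand excluded a member, such as 1.1% of the exonic bases in Gm26780 and 6.5% in Malat1. Overlap on the same strand did not enter this choice, and it covers 30.5% of the exonic bases of 1810026B05Rik. Malat1, Neat1, Mir155hg and Lncpint were called in all 10 fits. 1 of the 10 changed only the prior count, which does not enter the test, so it repeated the main calls. Dleu2 was called in 6 and AI504432 in 5, and Gm26825 was called only without replicate 1. The members' median SD of 0.24 was 0.28 on log2(TPM + 0.1) and lay between 0.20 and 0.25 when 1 replicate was left out. Members highest in replicate 3 numbered 31, against 21 of 68 by TPM (16.8% of all genes) and 37 in the second quantification (37.4%). The number of members was 66 by the second quantification, with 49 shared, 110 by FPKM, 60 with at least 1 TPM in every library, and 70 to 79 when 1 replicate was left out. No paired analysis was possible because there was a single group. The levels of the 6 members that missed the count filter rest on few counts, and the part of depth in this was not tested.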

Other observations

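The 12 lincRNA genes below 1 TPM that were called variable were all highest in replicate 3, and the 158 such genes tested had a median SD of 0.33 on the log2 CPM scale. Of the 149 called genes in the remaining noncoding and pseudogene classes, 136 were highest in replicate 3. Of the 110 called genes with a protein-coding transcript, 53 were highest in replicate 3 and 45 in replicate 1. The members' share of all annotated counts was 0.41%, 0.57% and 1.18% in replicates 1, 2 and 3, and Malat1 held 20.9%, 41.7% and 57.5% of the members' counts. Bc1, a short cytoplasmic RNA best known from neurons, had no count in replicates 2 and 3 in the first quantification but was listed at 3.81, 4.26 and 4.97 TPM in the second. Gm38079 was likewise listed at 3.07, 2.94 and 1.42 TPM in the second quantification against 0, 0 and 4.52 TPM in the first.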
